A study of Mus musculus with 2 samples.

Results

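The genes described here are the ligands and receptors of the PDGF, VEGF and angiopoietin systems: Pdgfa, Pdgfb, Pdgfra, Pdgfrb, Vegfa, Flt1, Kdr, Angpt1, Tek and Tie1. They were chosen by symbol, as the rows of both count matrices that carry these names, and make up 10 of the 32285 genes counted. All 10 were detected in both libraries, from 107 and 68 UMIs of Angpt1 to 14648 and 12215 UMIs of Flt1. A UMI (unique molecular identifier) is a short tag on each captured mRNA molecule, and PCR copies with the same tag count as 1.

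The study addressed how astrocytes of the striatum differ from each other, in particular the astrocytes that express Crym. For this it dissociated the striatum of untreated adult mice and made scRNA-seq libraries on the 10x Genomics platform. The 2 libraries used here, replicates 1 and 2, form 1 group and share genotype, treatment and tissue, with no transgene or Cre allele named. The strain is C57/Bl6J in the labels' strain field and C57BL/6NTac in their protocol text, and the labels put the age at 8 to 10 weeks, while the design text and the study's methods each give another range. The suspension is labelled as glia enriched, so the shares of cells are not those of the tissue. The study's methods call its replicates biological and name several mice. Neither they nor the labels say which mice went into which library. The p-values thus measure only how differences between classes vary between these libraries, and this spread may be technical.

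PDGF-A and PDGF-B, coded by Pdgfa and Pdgfb, form dimers that activate the receptor tyrosine kinases PDGFRα (Pdgfra) and PDGFRβ (Pdgfrb). In brain, endothelial PDGF-B recruits pericytes, which carry PDGFRβ, and PDGF-A maintains oligodendrocyte precursors, which carry PDGFRα. VEGF-A (Vegfa) binds VEGFR2 (Kdr), the main signalling receptor of endothelial cells, and VEGFR1 (Flt1), which binds it tightly and signals weakly. Angiopoietin 1 (Angpt1) activates the endothelial receptor TIE2 (Tek), with which TIE1 (Tie1) forms complexes, and stabilises vessels.

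The annotation of GRCm38, the build also called mm10, places 4 of the 10 genes on chromosome 5. These are Pdgfra (75152292–75198215, plus strand), Kdr (75932827–75978458, minus strand), Pdgfa (138976014–138997370, minus strand) and Flt1 (147561604–147726011, minus strand). Between the end of Pdgfra and Kdr, 2 receptor genes with different cell classes below, lie 734611 bases. Tek (94739289–94874976, plus strand) and Tie1 (118471191–118490061, minus strand) lie on chromosome 4. Angpt1 (42424723–42676977, minus strand) and Pdgfb (79995874–80014977, minus strand) lie on chromosome 15. Vegfa lies on chromosome 17 (46016993–46032369, minus strand). The position of Pdgfrb is given with its values. All 10 are annotated as protein coding, and the counts cover whole genes without telling exons or UTRs apart.

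The promoters of the 4 receptor genes that were highest in endothelial-like cells are shown because these genes moved together across the cell classes. Each sequence is from RefSeq on GRCm38.p6, runs 5′ to 3′ on the gene's strand, and holds 250 bases before and 50 bases after an annotated start. The positions are chr5:147725962-147726261 (minus strand) for Flt1, chr5:75978406-75978705 (minus strand) for Kdr, chr4:94739039-94739338 (plus strand) for Tek and chr4:118489800-118490099 (minus strand) for Tie1. Capitals mark GGAAGT, or its reverse complement ACTTCC, letters bound by ETS factors, a family with many members in endothelial cells.
Flt1: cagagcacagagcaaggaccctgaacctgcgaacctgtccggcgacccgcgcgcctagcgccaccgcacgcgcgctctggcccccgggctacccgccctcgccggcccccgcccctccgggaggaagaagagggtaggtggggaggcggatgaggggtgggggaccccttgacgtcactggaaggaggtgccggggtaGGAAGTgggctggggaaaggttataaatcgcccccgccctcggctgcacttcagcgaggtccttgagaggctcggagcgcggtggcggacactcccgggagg
Kdr: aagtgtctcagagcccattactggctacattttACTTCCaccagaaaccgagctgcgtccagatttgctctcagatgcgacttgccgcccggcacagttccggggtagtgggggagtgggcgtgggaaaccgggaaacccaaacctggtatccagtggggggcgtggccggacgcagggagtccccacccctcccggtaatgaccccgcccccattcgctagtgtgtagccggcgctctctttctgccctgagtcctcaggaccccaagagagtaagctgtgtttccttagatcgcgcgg
Tek: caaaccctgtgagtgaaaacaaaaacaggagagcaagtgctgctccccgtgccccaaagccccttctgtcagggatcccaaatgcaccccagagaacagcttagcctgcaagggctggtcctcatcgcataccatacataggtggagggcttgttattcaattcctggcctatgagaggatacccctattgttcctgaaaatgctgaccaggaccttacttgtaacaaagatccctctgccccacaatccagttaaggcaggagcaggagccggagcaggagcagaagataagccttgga
Tie1: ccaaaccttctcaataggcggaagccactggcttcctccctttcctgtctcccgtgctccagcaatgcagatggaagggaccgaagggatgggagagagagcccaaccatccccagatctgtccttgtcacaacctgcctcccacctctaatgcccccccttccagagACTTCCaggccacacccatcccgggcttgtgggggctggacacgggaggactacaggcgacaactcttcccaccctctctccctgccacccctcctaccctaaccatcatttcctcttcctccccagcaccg
The letters began 52 bases before the start in Flt1, on the forward strand, and lay on the reverse strand 217 bases before it in Kdr and 82 bases before it in Tie1. The Tek window did not hold them. Among the RefSeq promoters of the other genes described here, they were found in 1 of Vegfa, on the reverse strand 18 bases after its start. Searched on both strands, they were in 7809 of 32851 RefSeq promoters of this length (23.8%), so a match is frequent. TAAACA (forkhead factors; 13.4% of promoters) and ACAATG (SOX factors; 12.6%) were not in these 4 windows. The letters searched were chosen with the sequences in view, and a match does not show binding. RefSeq entries were found for 7 of the 10 genes.

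Replicate 1 held 6978 barcodes with 44597660 UMIs and replicate 2 held 5437 barcodes with 37982720 UMIs. After removal of barcodes with under 300 detected genes and of 115 and 152 predicted doublets, 6783 and 5212 cells remained, with medians of 3812 and 5305 UMIs. Of the 12415 barcodes, 9 barcode sequences occurred in both libraries. The 10 genes were withheld from the clustering of cells and defined no class. Clusters were named from marker genes into 9 classes that had at least 20 cells in each library: oligodendrocyte-like (2374 cells), astrocyte-like (2311), microglia-like (2143), neuroblast-like (1658), endothelial-like (1400), oligodendrocyte precursor (OPC)-like (645), neuron-like (642), mural-like (556) and macrophage-like (170). All 8 markers were raised in the endothelial-like, mural-like and OPC-like classes, all 10 in the astrocyte-like class. A cluster of 96 erythroid-like cells, 85 of them in replicate 1, was left out of the tests.

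Levels are given in CPM, a gene's UMIs in a library and class scaled to the same total in every such sum, and are compared between classes for each gene, not between genes. Differences between classes are log2 fold changes from edgeR's quasi-likelihood test on the sums of each library and class, n = 2 libraries, with adjusted p-values. The test used TMM scaling and the library as a block. It gives no standard error (SE), so the SE shown is the absolute log2 fold change divided by the square root of the test's F statistic. A gene is called held by a class when it was higher there than in each of the 8 others, each at an adjusted p under 0.05 in the test. The median of all genes was compared between TMM and plain library sizes for some pairs, among them each gene's class and its nearest class. There the 2 differed by 0.00082 to 0.40 (log2), the largest shift being a lower oligodendrocyte-like against mural-like value with library sizes. TMM factors were 1.31 and 1.34 in OPC-like and 1.21 and 1.23 in neuron-like cells. They were 0.76 and 0.79 in microglia-like and 0.77 and 0.75 in oligodendrocyte-like cells, so either of the former against either of these shifts by more. Differences near these sizes depend on the scaling.

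Each of the 10 genes was held by a single class. Flt1, Kdr, Tek, Tie1 and Pdgfb were held by endothelial-like cells, Pdgfrb and Angpt1 by mural-like cells, and Pdgfra by OPC-like cells. Pdgfa was held by oligodendrocyte-like cells and Vegfa by astrocyte-like cells. Against a narrower mural-like class, the call of Pdgfa was kept with TMM and lost with library sizes (below). Of all 15299 genes tested, 42.5% were held by some class. By class, 4.57% were held by endothelial-like, 3.17% by mural-like, 2.15% by OPC-like, 8.28% by oligodendrocyte-like and 4.44% by astrocyte-like cells. None of the 10 was held by neuron-like (6.51% of genes), neuroblast-like (5.92%), microglia-like (5.18%) or macrophage-like (2.29%) cells. For each of the 10 genes the class second in level also exceeded the next by edgeR's test. It was mural-like for Flt1, Kdr, Tek, Tie1, Pdgfra and Pdgfa, astrocyte-like for Pdgfrb and Angpt1, OPC-like for Vegfa and microglia-like for Pdgfb, the last with a call that depended on the tool and the scaling. In the narrower mural-like class, Pdgfra fell to 3.2 and 3.0 CPM, under the neuroblast-like values of 11.5 and 14.6 CPM.

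**Figure D1:**
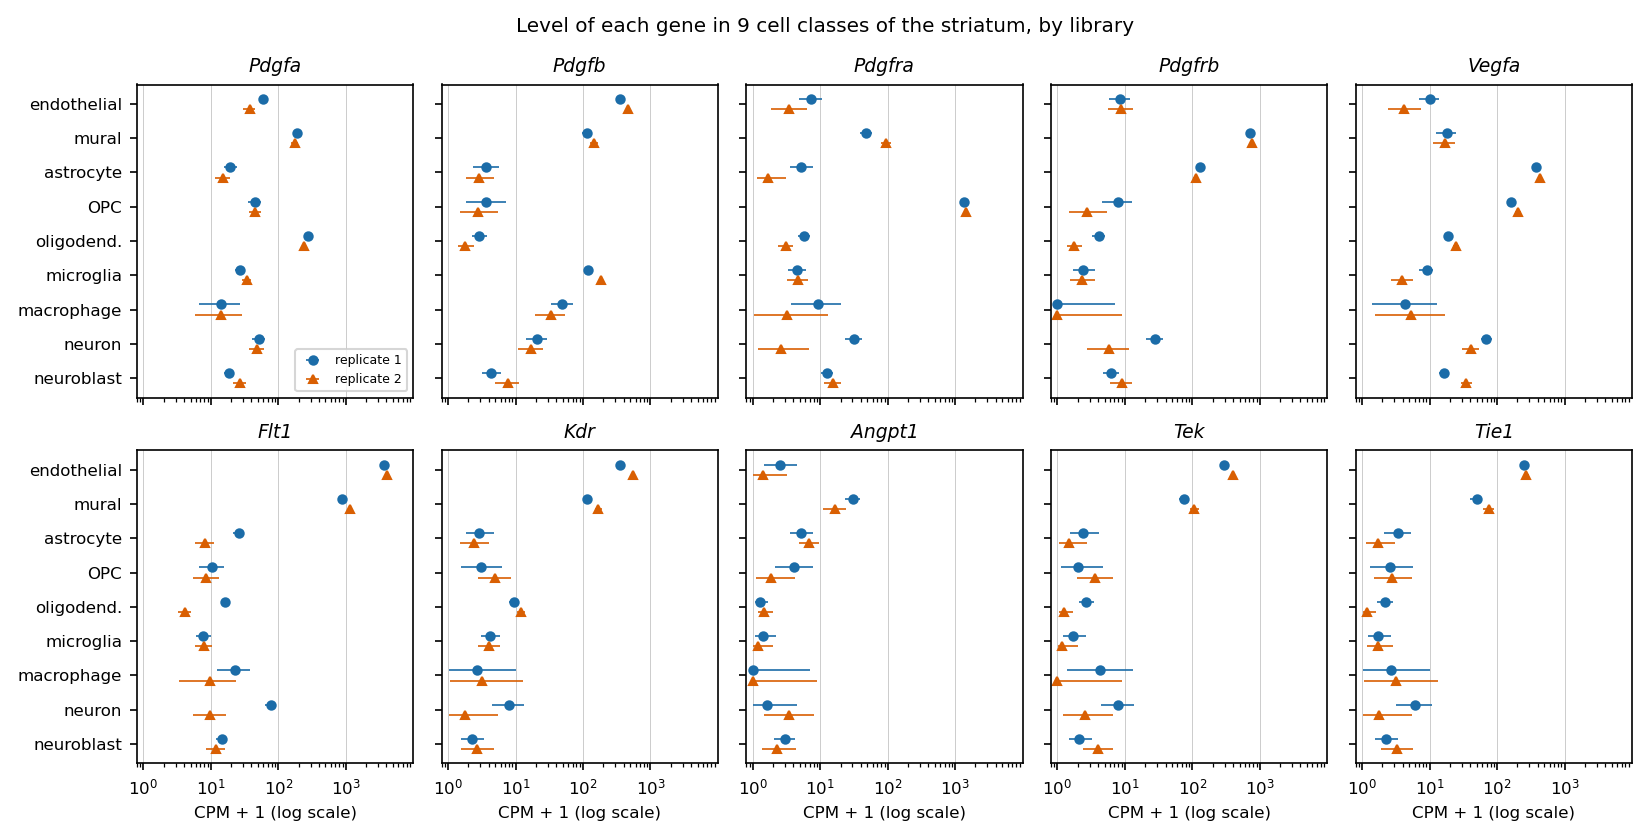
Level of each gene (CPM + 1, log scale) in the 9 cell classes, with a circle for replicate 1 and a triangle for replicate 2, and bars for exact Poisson 95% intervals, which cover counting error only. Flt1, at 3713 and 4130 CPM in endothelial-like cells, and Pdgfra, at 1346 and 1444 CPM in OPC-like cells, each stand above every other class in both replicates.

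Pdgfa, the PDGF-A ligand, was highest in oligodendrocyte-like cells. Its level there was 270.9 CPM in replicate 1 and 241.9 CPM in replicate 2, against 186 and 173 CPM in mural-like cells. In neuron-like cells it was 51.0 and 47.1, in endothelial-like cells 57.7 and 36.4, and in OPC-like cells 43.9 and 44.5 CPM, and the 4 remaining classes lay at or below 32.8 CPM. Both replicates of the oligodendrocyte-like class lay above both of the mural-like class, and both of these lay above every other class. The log2 fold change of oligodendrocyte-like over mural-like cells was 0.99 (SE 0.18, adjusted p = 0.00019), and that of mural-like over neuron-like cells was 2.05 (SE 0.22, adjusted p = 5.7e-07). With library sizes in place of TMM, the difference between oligodendrocyte-like and mural-like cells was 0.51 (adjusted p = 0.028). Oligodendrocyte-like cells, which were many and deeply sampled, held 79.5% of all Pdgfa UMIs. By cell numbers, this class included the committed OPC-like cells described below. Of these cells thinned to 1000 UMIs, 17.3% and 17.2% carried a Pdgfa UMI, against 1.44% and 1.49% of astrocyte-like cells. The oligodendrocyte-like class joined 2 clusters, and Pdgfa was at 285.6 and 248.5 CPM in the larger (medians of 16382 and 13469 UMIs per cell) and at 121.6 and 105.7 CPM in the smaller (medians of 2542 and 2541 UMIs), whose leading genes included mitochondrial transcripts.

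Pdgfb, the PDGF-B ligand, was highest in endothelial-like cells, at 357.6 and 456.4 CPM. Microglia-like cells followed with 118.3 and 182.4 CPM, mural-like cells with 111.8 and 146.3 CPM and macrophage-like cells with 48.3 and 32.6 CPM. Every other class lay at or below 19.7 CPM. The endothelial-like level exceeded the microglia-like level in both replicates (log2 fold change 1.12, SE 0.22, adjusted p = 0.00042). The microglia-like and mural-like values overlapped. Their difference was past the threshold in edgeR's test (0.67, SE 0.23, adjusted p = 0.021) and not with library sizes alone (0.21, adjusted p = 0.49) or DESeq2 (0.42, adjusted p = 0.43). Without the mixed and fibroblast-like cells described below, mural-like cells had 54.0 and 85.5 CPM, and microglia-like cells exceeded them by 1.52 (SE 0.26, adjusted p = 0.00010) with no overlap. Endothelial-like cells held 48.2% and microglia-like cells 38.3% of all Pdgfb UMIs.

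Endothelial transcripts were low in microglia-like cells. All 8 endothelial markers were detected there and summed to 72.8 and 66.8 CPM in microglia-like cells and to 21589 and 24606 CPM in endothelial-like cells. Per 100 endothelial marker UMIs, there were 162 and 273 Pdgfb UMIs in microglia-like cells, against 1.66 and 1.85 in endothelial-like cells. After thinning to 1000 UMIs, 9.42% and 15.6% of microglia-like cells carried a Pdgfb UMI, against 29.3% and 32.6% of endothelial-like cells and 0.173% and 0.086% of oligodendrocyte-like cells. Both microglia-like clusters carried it, at 119.8 and 185.3 CPM in the larger and at 95.0 and 133.4 CPM in the smaller.

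Pdgfra, the receptor for PDGF-A, was concentrated in OPC-like cells. Its level there was 1346 CPM in replicate 1 and 1444 CPM in replicate 2, and it was found in 74.7% and 73.8% of these cells after thinning to 1000 UMIs, against 0.605% and 0.344% of oligodendrocyte-like cells. Mural-like cells followed with 47.2 and 94.2 CPM. Neuron-like cells had 30.6 CPM in replicate 1 and 1.6 CPM in replicate 2, and all other classes lay at or below 14.6 CPM. OPC-like cells exceeded mural-like cells by 3.98 (log2, SE 0.45, adjusted p = 1.7e-06) and held 90.5% of all Pdgfra UMIs. Below mural-like cells, no difference between a class and the next in order of level passed the threshold, that of the neuron-like class included (0.28 over neuroblast-like cells, SE 0.62, adjusted p = 0.73).

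Pdgfrb (chromosome 18, 61045150–61085061, plus strand), the receptor for PDGF-B, was highest in mural-like cells, at 707.9 and 758.5 CPM. Astrocyte-like cells had 128.2 and 110.3 CPM. Neuron-like cells had 26.8 and 4.8 CPM, endothelial-like cells 7.5 and 7.7 CPM, and the other classes at most 7.9 CPM. Mural-like cells exceeded astrocyte-like cells by 2.56 (log2, SE 0.32, adjusted p = 5.6e-06). Astrocyte-like cells in turn exceeded each of the 7 remaining classes, the neuron-like class by 3.10 (SE 0.42, adjusted p = 1.5e-05). The size of that last difference rested on the neuron-like cells, at 4.60 without replicate 1 and 2.48 without replicate 2. No UMI of Pdgfrb was found in macrophage-like cells of either replicate, which allows levels of up to 5.00 and 6.53 CPM.

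Astrocyte-like cells held 26.5% of all Pdgfrb UMIs, and mural transcripts were low in them. The 8 mural markers, Pdgfrb not among them, summed to 139.8 and 73.8 CPM in astrocyte-like cells and to 26523 and 25903 CPM in mural-like cells. Per 100 mural marker UMIs, there were 91.7 and 150 Pdgfrb UMIs in astrocyte-like cells and 2.67 and 2.93 in mural-like cells. After thinning to 1000 UMIs, 13.4% and 10.6% of astrocyte-like cells carried a Pdgfrb UMI, against 57.9% and 56.4% of mural-like cells and 0.0981% and 0.103% of microglia-like cells.

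Vegfa, the VEGF-A ligand, was highest in astrocyte-like cells, at 374.7 and 435.5 CPM. OPC-like cells had 159 and 204 CPM, neuron-like cells 68.2 and 39.9 CPM, and the other classes at most 34.1 CPM. The replicates of these 3 classes did not overlap. Astrocyte-like cells exceeded OPC-like cells by 1.54 (log2, SE 0.31, adjusted p = 0.00080), and OPC-like cells exceeded neuron-like cells by 1.58 (SE 0.36, adjusted p = 0.0019; 2.19 without replicate 1). Endothelial-like cells, which held the receptors, had 9.0 and 3.2 CPM. Astrocyte-like cells carried 63.8% and OPC-like cells 14.3% of all Vegfa UMIs. In thinned cells, Vegfa was found in 27.1% and 31.2% of astrocyte-like cells, in 14.2% and 14.3% of OPC-like cells and in 0.494% and 0.206% of endothelial-like cells.

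Flt1, coding for VEGFR1, was at 3713 and 4130 CPM in endothelial-like cells and at 885.9 and 1153 CPM in mural-like cells. All other classes lay at or below 76.4 CPM. The endothelial-like class exceeded the mural-like class by 2.05 (log2, SE 0.47, adjusted p = 0.0034) and held 83.9% of all Flt1 UMIs. Of endothelial-like cells thinned to 1000 UMIs, 94.9% and 96.7% carried a Flt1 UMI, against 0.981% and 0.929% of microglia-like cells. Neuron-like cells differed between the replicates, with 76.4 CPM of Flt1 in replicate 1 and 8.8 CPM in replicate 2. Their endothelial markers also differed, with sums of 442.8 and 143.7 CPM, and the part of such transcripts in the Flt1 value was not tested.

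Kdr, coding for VEGFR2, was at 346.8 and 557.2 CPM in endothelial-like cells and at 114.5 and 167 CPM in mural-like cells. Endothelial-like cells exceeded mural-like cells by 1.80 (log2, SE 0.21, adjusted p = 5.2e-06). Oligodendrocyte-like cells came next with 8.4 and 11.1 CPM. Neuron-like cells, the next class, had 7.0 and 0.8 CPM, from 11 and 1 UMIs, and so lay close to them in replicate 1. The difference after TMM scaling was 1.71 (SE 0.40, adjusted p = 0.0015). A Kdr UMI was found in 1.30% and 0.946% of thinned oligodendrocyte-like cells, against 27.2% and 42.1% of endothelial-like cells. Further down, no difference between neighbours in order passed the threshold.

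Angpt1, the ligand of TIE2, was the sparsest of the 10 genes, with 175 UMIs in 144 cells of both libraries, 80 of the UMIs in mural-like cells and 43 in astrocyte-like cells. Its level was 29.1 and 15.7 CPM in mural-like cells and 4.3 and 5.9 CPM in astrocyte-like cells, and at most 3.1 CPM elsewhere. Both replicates of the mural-like class lay above both of every other class (1.94 over astrocyte-like cells, log2, SE 0.44, adjusted p = 0.0016). The size of this difference varied with the library, at 1.25 without replicate 1 and 2.60 without replicate 2. Astrocyte-like cells exceeded OPC-like cells by 1.51 (SE 0.55, adjusted p = 0.038), and endothelial-like cells had 5 and 1 UMIs. In thinned cells, an Angpt1 UMI was found in 1.88% and 0.948% of mural-like cells and in 0.0864% and 0% of oligodendrocyte-like cells.

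The angiopoietin receptor gene Tek was at 298.3 and 392.8 CPM in endothelial-like cells and at 73.1 and 105.5 CPM in mural-like cells. Its partner Tie1 was at 248.1 and 270.9 CPM in endothelial-like cells and at 48.7 and 74.1 CPM in mural-like cells. For both genes every other class lay at or below 7.0 CPM. The endothelial-like class exceeded the mural-like class by 2.08 (log2, SE 0.31, adjusted p = 6.9e-05) for Tek and by 2.21 (SE 0.27, adjusted p = 1.1e-05) for Tie1. With DESeq2 the difference for Tek was 1.96 and not past the threshold (adjusted p = 0.085). In thinned endothelial-like cells, Tek was found in 26.9% and 29.3% and Tie1 in 23.1% and 23.9%, against 0.0981% and 0% of microglia-like cells for Tek and 0% in both replicates for Tie1.

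**Figure D2:**
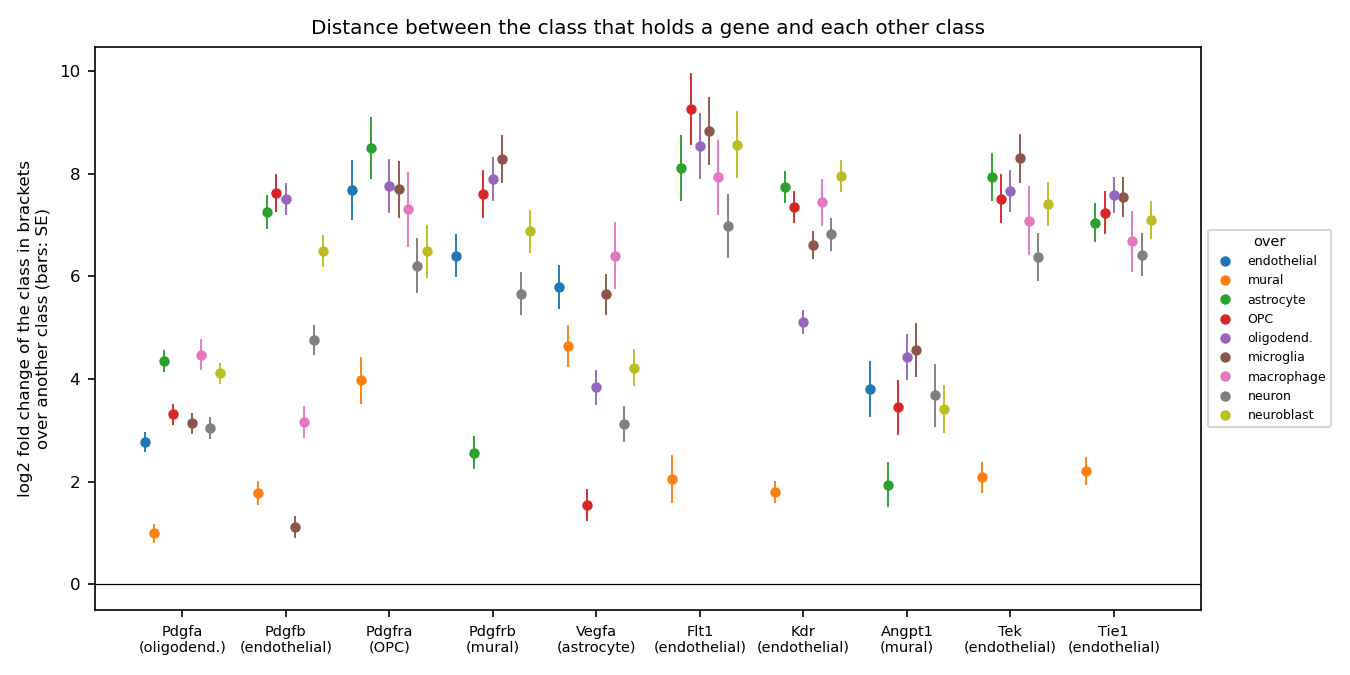
Log2 fold change of each gene's highest class over every other class, with SE as bars, from edgeR with n = 2 libraries. The smallest differences are those of Pdgfa over mural-like cells (0.99) and of Pdgfb over microglia-like cells (1.12), and classes with 0 UMIs in both libraries are not drawn.

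Detection in the same cell was counted for some pairs and groups of genes. After thinning to 1000 UMIs, 2.14% and 1.86% of endothelial-like cells carried a UMI of none of Flt1, Kdr, Tek and Tie1, and 1.48% and 3.09% carried all 4. Pdgfb and Flt1 were found together in 27.8% and 31.1% of these cells. In OPC-like cells, Pdgfra and Pdgfa were found together in 3.11% and 2.08%. These shares are set by the sampling of 1000 UMIs and do not count the cells that express both genes.

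Across the 18 class sums of both libraries, the genes with the closest patterns, by Pearson correlation of log2(CPM + 10), are named here. These sums share libraries, so the values describe likeness and were not tested. The closest to Flt1 were Cldn5 (r = 0.995), Adgrl4 (0.994) and Slco1a4 (0.994), to Kdr Cavin2 (0.991), Slc38a5 (0.991) and Erg (0.988), to Tek C130074G19Rik, Ocln and Cdh5 (each 0.997) and to Tie1 Grrp1 (0.998), Ocln (0.998) and C130074G19Rik (0.997). Cldn5, Slco1a4 and Cdh5 are among the endothelial markers. Pdgfrb was most like Ddit4l (0.981), Itga7 (0.977) and Sod3 (0.976), and Angpt1 like Mamdc2 (0.968), Vasn (0.966) and again Sod3 (0.955). Pdgfra was most like Tnfrsf11b (0.968), Tmem255b (0.961) and Il17d (0.956), and Vegfa like Mmd2 (0.973), Mro (0.971) and Agpat5 (0.965). Pdgfb was most like Cd2ap (0.975), Anxa3 (0.968) and Isyna1 (0.961). The closest to Pdgfa, Ctsk (0.928), Ctnna3 (0.927) and Slco3a1 (0.925), were the least like their gene among the 10 sets.

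The mural-like class held cells of several kinds, which bears on the values above. Its endothelial markers summed to 4592 and 5209 CPM and its fibroblast markers to 1397 and 1744 CPM, while endothelial markers summed to at most 442.8 CPM in the classes other than these vascular ones. Clustering the endothelial-like and mural-like cells again, without the 10 genes, gave a subcluster of 54 cells with pericyte and endothelial markers together and a fibroblast-like subcluster of 105 cells, all 7 of whose markers were raised. The mixed cells had a median of 15161.5 UMIs, against 4097.5 in the mural-like class. They carried Flt1 at 2973 and 3276 CPM beside Pdgfrb at 503 and 619 CPM.

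Without these cells, an exclusion chosen after seeing the data, each of the 10 genes was again held by its class with TMM scaling. The exclusion left 246 and 192 mural-like cells, of 313 and 243, and also took some cells from the endothelial-like class. More mural-like cells remained than the pericyte-like and smooth muscle-like cells below together, so some belonged to other subclusters. The Flt1 level that follows lay above the levels of both these kinds. In the remaining mural-like cells Flt1 was at 278.2 and 385.5 CPM, Kdr at 45.2 and 38.2, Tek at 32.3 and 42.3, Tie1 at 17.7 and 34.2 and Pdgfra at 3.2 and 3.0 CPM. The endothelial-like class then exceeded them by 3.65 for Flt1 (log2, SE 0.51, adjusted p = 2.3e-05), and OPC-like cells exceeded them by 8.29 for Pdgfra (SE 0.60, adjusted p = 7.2e-09). Pdgfrb was at 833.9 and 895.7 CPM and Angpt1 at 36.3 and 25.2 CPM in these cells. Pdgfa rose to 252.4 and 250.6 CPM there, so that the replicates overlapped those of oligodendrocyte-like cells, with a difference of 0.46 (SE 0.18, adjusted p = 0.036). With library sizes in place of TMM that difference was 0.03 (SE 0.18, adjusted p = 0.92), so the call of Pdgfa in oligodendrocyte-like over mural-like cells depended on the cells included and the scaling, and the other 9 genes were still held by their classes.

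Within the mural-like cells, pericyte-like cells (304) and smooth muscle-like cells (118) differed in 4 of the 10 genes, against 23.5% of the 9908 genes tested. Pdgfrb was higher in pericyte-like cells, at 1666 and 1864 CPM against 309 and 337 CPM in smooth muscle-like cells (log2 fold change 2.16, SE 0.19, adjusted p = 1.0e-08). The ligands Pdgfa, Pdgfb and Angpt1 were higher in smooth muscle-like cells. Pdgfa was at 335.0 and 335.7 CPM there against 153.9 and 147 CPM (1.43, SE 0.24, adjusted p = 8.6e-05), and the replicates of each kind lay close together. Angpt1 was at 56.6 and 32.5 CPM, from 37 and 19 UMIs, against 14.4 and 16.6 CPM, from 7 and 6 UMIs (1.62, SE 0.48, adjusted p = 0.018).

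Pdgfb was at 44.4 and 78.8 CPM in smooth muscle-like cells and at 22.6 and 47.2 CPM in pericyte-like cells (1.06, SE 0.30, adjusted p = 0.013), so that replicate 1 of the former lay below replicate 2 of the latter. Endothelial markers summed to 289.1 and 971.1 CPM in smooth muscle-like cells and to 346.8 and 521.5 CPM in pericyte-like cells. These sums were higher in smooth muscle-like cells in replicate 2 and lower there in replicate 1. The part of endothelial transcripts in the Pdgfb difference was not tested. With library sizes alone Pdgfb fell short of the threshold (0.78) and Kdr passed it, and Angpt1 was lost with DESeq2 and without the block. Flt1 was at 178.5 and 221.9 CPM in pericyte-like and at 79.5 and 214.1 CPM in smooth muscle-like cells (0.20, SE 0.25, adjusted p = 0.63). Per 100 endothelial marker UMIs, Flt1 had 51.5 and 42.6 UMIs in pericyte-like cells, against endothelial-like values of 17.2 and 16.8. By the levels above, this ratio also exceeded the endothelial-like values in smooth muscle-like cells in both replicates, and lay below that of pericyte-like cells.

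Endothelial-like cells were compared as arterial-like (173), venous-like (191) and a subcluster of 377 cells led by Apln. In this last subcluster 3 of 6 capillary markers were raised. It was named for Apln because 5 haemoglobin or other erythroid genes were among its 10 leading genes. The 4 other subclusters, of 330, 170, 116 and 18 cells, took no name and were left out of these comparisons. Summed together, they had Flt1 at 3580 and 4153 CPM and Kdr at 354.1 and 518.3 CPM. Between arterial-like and Apln-led cells, Pdgfa, Kdr and Pdgfrb differed, beside 3.87% of all genes. Pdgfa was higher in arterial-like cells, at 137.5 and 84.5 CPM, than in Apln-led cells, at 21.8 and 17.1 CPM (log2 fold change 2.30, SE 0.31, adjusted p = 4.8e-05). It was also higher than in venous-like cells, at 41.4 and 35.2 CPM (1.43, SE 0.30, adjusted p = 0.0035), where 5.38% of all genes differed. Kdr, in contrast, was lower in arterial-like cells, at 183.8 and 358.9 CPM, than in Apln-led cells, at 455.9 and 662.5 CPM (higher there by 1.11, SE 0.19, adjusted p = 0.00087), and venous-like cells, at 380.4 and 597.1 CPM (0.90, SE 0.20, adjusted p = 0.0055). Both arterial-like values of Kdr lay below every value of the other 2 subclusters. Without the library block, neither difference of Kdr and not that of Pdgfa between arterial-like and venous-like cells passed the threshold, and with DESeq2 the difference of Kdr from venous-like cells did not.

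Between Apln-led and venous-like cells none of the 10 genes passed edgeR's test, beside 1.20% of all genes called, and 2 of them, Pdgfa and Tek, had an unadjusted p under 0.05. Flt1 was at 4180 and 4789 CPM in arterial-like, 4037 and 4149 CPM in Apln-led and 3200 and 3563 CPM in venous-like cells, which did not differ past the threshold. Pdgfb ranged from 355 to 509 CPM, Tek from 262 to 446 CPM and Tie1 from 232 to 303 CPM over the 6 sums. Pdgfrb, at 8.9 and 23.6 CPM in Apln-led and 4.3 and 0 CPM in arterial-like cells, passed the threshold (1.64, SE 0.45, adjusted p = 0.042). That difference was 2.75 without replicate 1 and 0.74 without replicate 2, and it was lost with DESeq2, with library sizes alone and without the block.

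**Figure D3:**
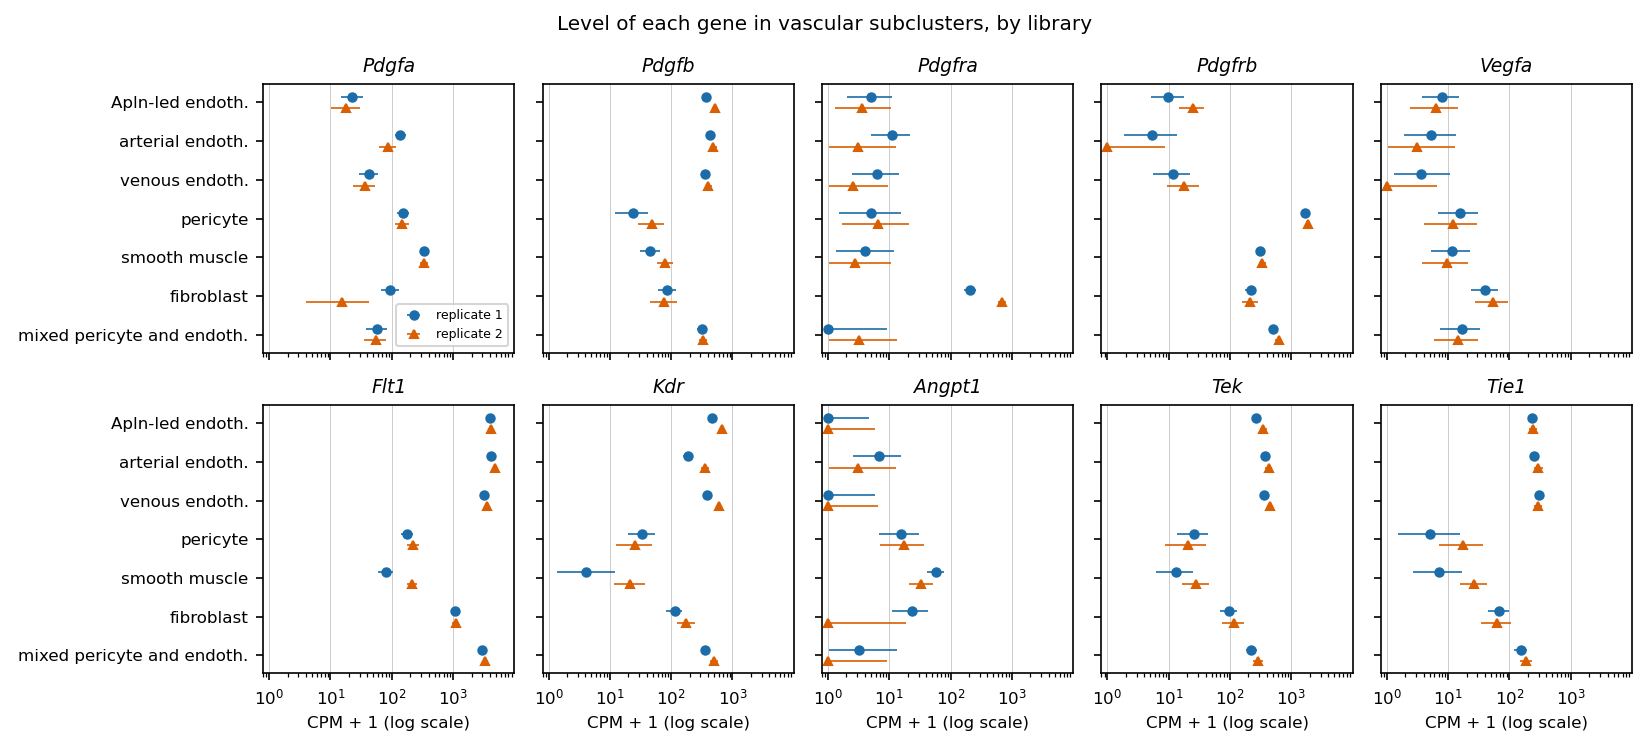
Level of each gene (CPM + 1, log scale) in the vascular subclusters, with a circle for replicate 1, a triangle for replicate 2 and exact Poisson 95% intervals as bars. Pdgfrb is at 1666 and 1864 CPM in pericyte-like cells, and Pdgfra at 209 and 692 CPM in the fibroblast-like subcluster, with the other 6 subclusters at or below 10.1 CPM for Pdgfra.

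The fibroblast-like subcluster carried Pdgfra together with Pdgfrb. Pdgfra was at 208.8 and 692.3 CPM there, from 85 and 146 UMIs, and Pdgfrb at 216.2 and 213.4 CPM. Flt1 was also present, at 1074 and 1110 CPM, beside endothelial markers that summed to 5999 and 5979 CPM, or 26.2% of the level of the endothelial-like class. At the finer clustering of all cells (resolution 0.32 in place of 0.08), a fibroblast-like class of 35 and 21 cells held Pdgfra at 458 and 1011 CPM, with Flt1 at 61.4 and 13.8 CPM. OPC-like cells exceeded this class in Pdgfra by 0.80 (log2, SE 0.41, adjusted p = 0.19), which did not pass the threshold. Its Pdgfrb was at 279 and 242 CPM, below the mural-like class of that clustering at 906 and 941 CPM (2.11, SE 0.37, adjusted p = 0.00054).

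The finer clustering also separated 235 committed OPC-like cells, named from Bmp4, Gpr17, Neu4, Enpp6, Bcas1 and Itpr2, genes that mark precursors as they start to differentiate. Against OPC-like cells, 4 of the 10 genes differed, beside 35.0% of all 15054 genes. Pdgfra was at 1346 and 1444 CPM in OPC-like cells and at 13.7 and 9.4 CPM in committed cells, from 24 and 12 UMIs (lower by 6.48, log2, SE 0.54, adjusted p = 1.9e-08). Pdgfa had the opposite direction, at 43.9 and 44.5 CPM in OPC-like and 349 and 540 CPM in committed cells (3.64, SE 0.24, adjusted p = 9.3e-10). In oligodendrocyte-like cells of this clustering Pdgfa was at 260 and 214 CPM, below committed cells in both replicates without overlap. After TMM scaling the difference from committed cells was not past the threshold (0.35, SE 0.20, adjusted p = 0.19). This pair was not followed with other scalings. Along this lineage, the receptor was highest in OPC-like cells and its ligand in committed and oligodendrocyte-like cells.

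Vegfa was lower in committed than in OPC-like cells, at 36.0 and 52.5 CPM against 159 and 204 CPM (1.69, log2, SE 0.35, adjusted p = 0.00074). Flt1 was at 54.3 and 5.5 CPM in committed and 9.4 and 7.5 CPM in OPC-like cells. Its call (2.02, SE 0.73, adjusted p = 0.037) came from replicate 1, without which the difference was −0.19. At this resolution 7 of the 10 genes were held by a class, against 34.5% of all genes. Pdgfa was then held by no single class. Both committed values, 349 and 540 CPM, lay above those of oligodendrocyte-like cells and of mural-like cells, at 253 and 256 CPM. Oligodendrocyte-like and mural-like cells differed by 0.39 (SE 0.21, adjusted p = 0.14). Pdgfra in OPC-like cells did not pass the threshold over fibroblast-like cells, and Angpt1 had 50.3 CPM and 0 CPM in the fibroblast-like replicates. The mural-like class of that resolution had Flt1 at 74.5 and 116 CPM, and endothelial-like cells exceeded it by 5.43.

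**Figure D4:**
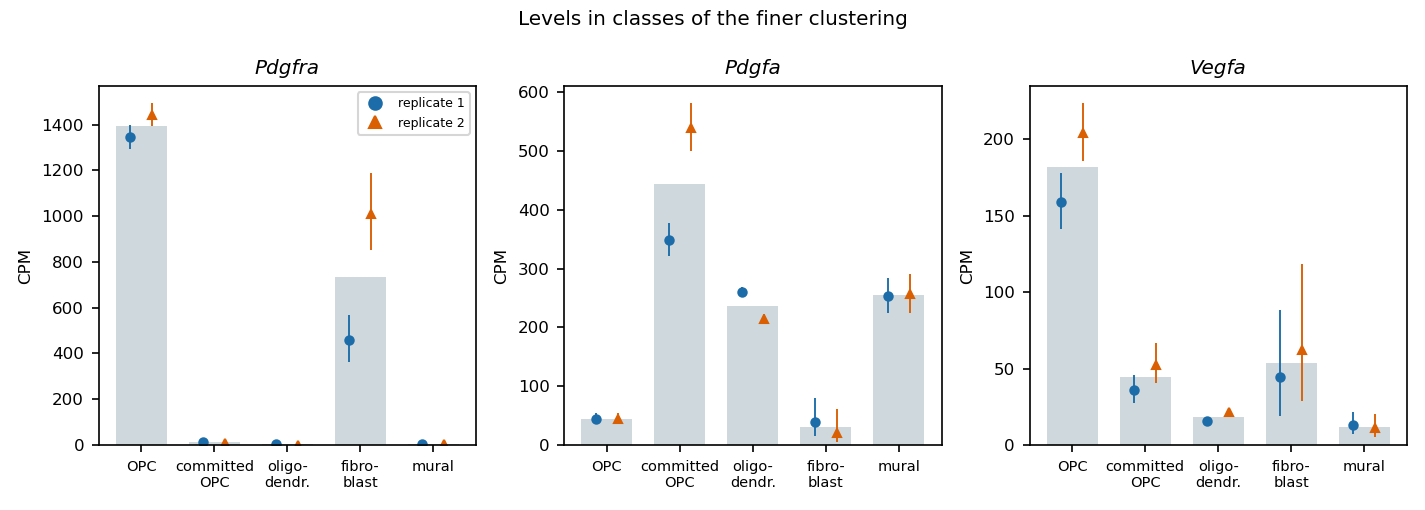
Levels in CPM (linear scale) of Pdgfra, Pdgfa and Vegfa in OPC-like, committed OPC-like, oligodendrocyte-like, fibroblast-like and mural-like cells of the finer clustering, with grey bars for the mean of both libraries, points for the replicates and exact Poisson 95% intervals. Pdgfra is at 1346 and 1444 CPM in OPC-like cells and at 13.7 and 9.4 CPM in committed cells, where Pdgfa is at 349 and 540 CPM.

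Crym+ and Crym− astrocyte-like cells, the groups that the study was about, were compared for the 10 genes last. Of the astrocyte-like cells, 504 and 436 were Crym+ and 827 and 544 were Crym− in replicates 1 and 2. The groups differed in depth, with medians of 2422.5 and 5175 UMIs in Crym+ and 1448 and 1959 UMIs in Crym− cells. How many Crym− cells carried Crym mRNA that was not sampled was not tested. Only Vegfa and Pdgfrb were detected in 10% of the cells of a group, the filter of this comparison. Neither passed edgeR's test or had an unadjusted p under 0.05, and DESeq2 called neither, beside 248 of 6036 genes (4.11%) called by edgeR. Vegfa was at 370 and 447 CPM in Crym+ and 380 and 421 CPM in Crym− cells (log2 fold change −0.0014, SE 0.087, adjusted p = 0.99). Pdgfrb was at 113.6 and 121.8 CPM in Crym+ and 143.6 and 95.9 CPM in Crym− cells (−0.04, SE 0.14, adjusted p = 0.90). For both genes the replicates of the groups overlapped. Without the filter Angpt1 was called, from 11 UMIs in Crym+ cells (2.3 and 2.6 CPM) and 32 UMIs in Crym− cells (6.4 and 10.2 CPM). In that setting 660 of 18733 genes were called.

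Of 16 further genes of the same pathways, 14 were tested and 4 were held by a class, beside 42.5% of all 15299 genes tested. Endothelial-like cells held Pdgfd, another PDGF ligand, at 67.4 and 55.5 CPM, Flt4, the receptor VEGFR3, at 74.6 and 66.8 CPM, and Ptprb, the phosphatase that acts on TIE2, at 1192 and 1545 CPM. Mural-like cells held Pgf, a VEGF family ligand of VEGFR1, at 65.7 and 62.2 CPM. Angpt2, the ligand that can oppose Angpt1, was at 31.9 and 22.7 CPM in endothelial-like and 23.8 and 30.1 CPM in mural-like cells. Vegfb, another ligand of VEGFR1, was highest in astrocyte-like cells, at 137 and 131 CPM, and its difference from microglia-like and macrophage-like cells did not pass the threshold. Nrp1, a VEGF co-receptor, was at 375 and 272 CPM in macrophage-like and 197 and 239 CPM in endothelial-like cells (0.70, log2, SE 0.27, adjusted p = 0.063).

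Of the oxygen-sensing factors upstream of Vegfa, Epas1 was at 1053 and 896 CPM in endothelial-like and 764 and 750 CPM in mural-like cells. Hif1a was at 170 and 168 CPM in OPC-like cells and at 85.9 and 95.2 CPM in microglia-like cells, which did not differ past the threshold after TMM scaling.

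**Figure D5:**
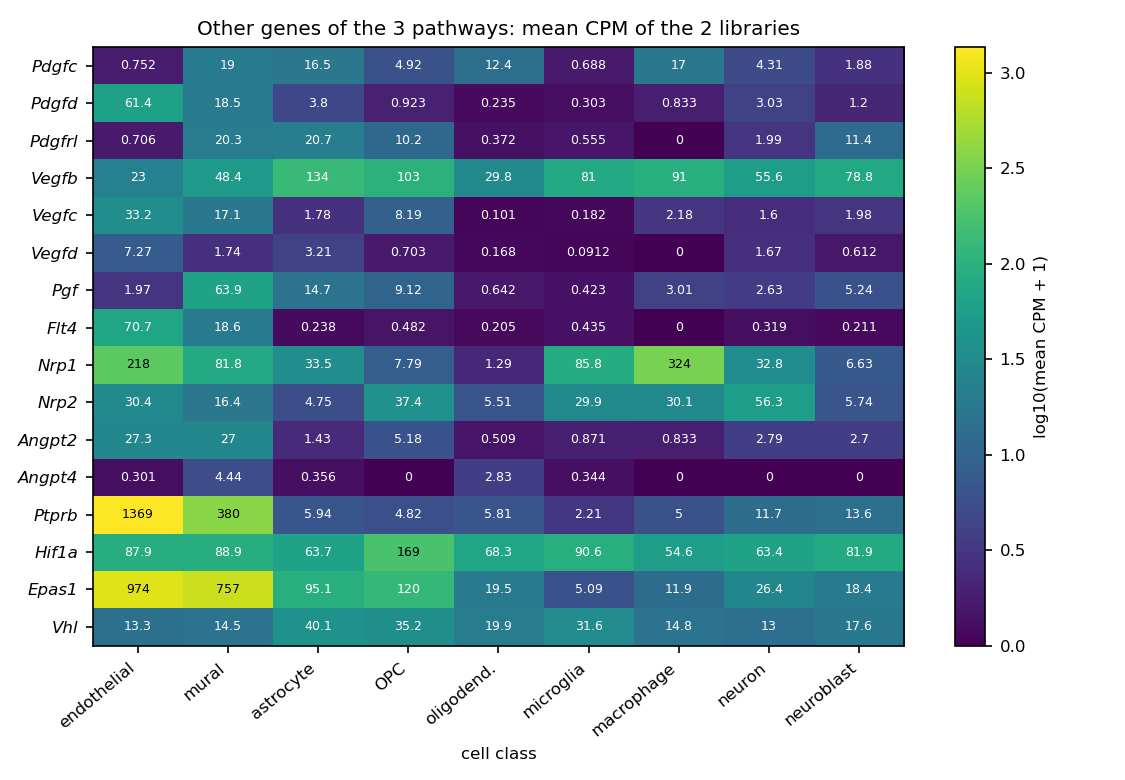
Mean CPM of the 2 libraries (numbers; colour as log10(mean CPM + 1)) for 16 other genes of the pathways in the 9 classes. Ptprb, Flt4 and Pdgfd are highest in endothelial-like cells and Pgf in mural-like cells, where its mean is 63.9 CPM.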

How the data were processed

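Single-cell RNA was measured in 2 libraries of mouse striatum. The authors deposited raw UMI counts per gene and barcode, made with Cell Ranger on mm10 and not normalised. Per the file headers the version was 4.0, and the paper's methods name another. The paper's annotation of cells was not used here, so classes were rebuilt and a difference from the study may come from that. The genes and lists were chosen with earlier results of these data known.

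Cells with at least 300 genes were kept. Scrublet (scanpy 1.11.5) marked doublets at an expected 6%. Seurat 5.3.0 in R 4.3.3 integrated the libraries on 2000 variable genes and 30 principal components and clustered cells at resolution 0.08, without the 10 genes, 16 pathway genes, Crym and 97 cell-cycle genes. Vascular cells were clustered again at 0.8. A cluster took a name when at least 3 markers were raised 2-fold, with 10 CPM added, and at least 1 was among its 50 leading genes. These naming thresholds were set after seeing the data. Subclusters of OPC-like cells could not be named, so the test between them was not made, and committed cells come from resolution 0.32.

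UMI counts were summed per library and class, kept by filterByExpr, and tested with edgeR 4.0.16 (TMM, quasi-likelihood, library as block, prior count of 2, Benjamini-Hochberg adjustment within each contrast, threshold 0.05). The sums compared within a library share 1 suspension, which pairs them by design. All 9 classes were fitted together, so the spread of a gene was estimated over all classes and not for each pair. In simulated counts for 15299 genes, tested as endothelial-like over mural-like cells, 56% of 2-fold and 93% of 4-fold changes were recovered, with 9 false calls. Only 200 genes were changed there, all above a minimum mean count, and the 2 classes were set equal for the rest. Many more genes differ between real classes, so recovery there and for sparse genes such as Angpt1 was not tested. Crym+ cells had a natural-log value of Crym above 0.25, and that comparison kept genes in at least 10% of the cells of a group. Intervals are exact Poisson intervals at 95% and cover counting error only, and limits for absent genes correspond to 3 UMIs. Shares of cells were taken after thinning each cell to 1000 UMIs and leaving out shallower cells.

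The text names the 10 genes, the pathway list, the markers, and the 3 genes most like each of the 10. Alternatives were DESeq2 1.42.0, library sizes alone, all genes with at least 1 count, no block, resolution 0.32, doublets kept, at least 500 genes, under 20% mitochondrial UMIs, and each library left out. Mural-like cells without mixed and fibroblast-like cells, with TMM and with library sizes, were added after seeing the data. Python 3.11.15 with numpy 2.4.6, scipy 1.17.1, pandas 2.3.3 and matplotlib 3.10.9 was used.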

Additional observations from a re-analysis of the deposited data

How the results depend on the processing

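Over the alternatives, 29 fold changes of the 10 genes were followed through 260 values. Of these, 236 counted as unchanged, 19 fell short of the threshold, 4 moved in size and 1 reversed. Where a test was made, unchanged meant the same side of the threshold, with the same direction for called genes. With 1 library left, it meant a distance from the main value within the SD of the 2 such values. A main value between these nearly always meets that rule, so unchanged says little about stability there. The reversed value was Flt1 in committed over OPC-like cells, −0.19 without replicate 1, against 2.82 without replicate 2. The number of genes held by a class was 10 without the replicate block, 9 with DESeq2, 9 with library sizes alone and a mural-like class without mixed and fibroblast-like cells, and 7 at resolution 0.32 or with at least 500 genes per cell. Of all genes tested, 42.5% were held in the main fit and 34.5% at resolution 0.32. Shares under the other settings are not given, for this count or for the pairs that follow, the Crym groups apart. A fall among the 10 genes is thus not told apart from a general fall. Between pericyte-like and smooth muscle-like cells 4 genes were called, and 3 without the block. Between endothelial subclusters 3 genes were called, and 1, Pdgfa, without the block. Between committed and OPC-like cells 4 genes were called, 3 without the block and 5 with all genes. Between Crym+ and Crym− cells 0 were called, 0 without the block and 1, Angpt1, with all genes. In that comparison edgeR called 248 of 6036 genes. Of the same 6036, DESeq2 called 52, library sizes alone 427 and the fit without the block 2. The fit of all genes with at least 1 count called 660 of 18733. The cause of these changes was not tested. With 1 library left, no test could be made and a dispersion of 0.05 was set for the fold changes. For the counts of genes called, only the direction was then followed. Of these genes, 3 of 4 kept it without replicate 1 in committed over OPC-like cells, and every one did in the other comparisons of this paragraph and without replicate 2. With 2 libraries the estimate of the spread leans on that shared between genes, and the sparse Angpt1 limits what can be seen for it.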

Other observations

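The other pathway genes also differed within the vascular cells. Vegfc, a ligand of VEGFR3, was at 83.9 and 175 CPM in arterial-like cells and at 0 and 3.9 CPM in Apln-led cells (log2 fold change 4.59, SE 0.38, edgeR adjusted p = 1.2e-07), and at 2.7 and 6.1 CPM in venous-like cells (4.04, SE 0.38, adjusted p = 3.3e-07). Both arterial-like values lay far above every value of the other 2 subclusters. Angpt2 was at 76.2 and 63.0 CPM in Apln-led cells and at 2.9 and 2.1 CPM in arterial-like cells (3.61, SE 0.39, adjusted p = 2.5e-06), with 2.7 and 1.5 CPM in venous-like cells. Nrp2, a VEGF co-receptor, was at 32.03 and 102.6 CPM in venous-like cells and at 4.3 and 12.7 CPM in arterial-like cells (2.55, SE 0.42, adjusted p = 0.00035), and the replicates did not overlap. Nrp1 was higher in Apln-led cells, at 256 and 332 CPM, than in arterial-like cells, at 103 and 146 CPM (1.26, SE 0.20, adjusted p = 0.00026).

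In smooth muscle-like cells Pgf was at 127 and 149 CPM, against 65.7 and 33.3 CPM in pericyte-like cells (1.64, SE 0.33, adjusted p = 0.00087). Pdgfc, another PDGF ligand, was at 52.0 and 49.7 CPM in smooth muscle-like cells, and no UMI of it was found in pericyte-like cells of either replicate.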
